A study of Mus musculus with 8 samples.

Results

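The 10 genes described here, Glul, Slc1a3, Rlbp1, Aqp4, Sox9, Hes1, Dkk3, Clu, Vim and Gfap, are genes of retinal macroglia, and they were taken by gene symbol from 24942 genes in a table of normalized read counts. Each of the 10 symbols was found once. The table came from RNA sequencing of retinal ganglion cells of mice at postnatal day 8, which were purified by immunopanning, a capture of cells on antibody-coated plates, and lysed on the plate without culture. Groups were NPC1-deficient mice (4 libraries) and wildtype littermates (4 libraries), both under the strain label balb/cnctr-npc1m1n/j. The labels do not say whether a library is 1 animal or a pool, so the spread between libraries may be technical in part.

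Macroglia of the retina are of 2 kinds. Müller cells span the whole retina, arise from the same late progenitors as rods, bipolar cells and late amacrine cells, take up transmitter glutamate, convert it to glutamine and handle water, potassium and retinoids. Astrocytes migrate in from the optic nerve and lie among the ganglion cell axons. Several of the genes are not exclusive to glia, since vimentin is also made by vascular and mesenchymal cells, and clusterin, Dickkopf 3 and Hes1 by other cells of the eye.

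Libraries held between 33030175 and 44050118 reads. Npc1, which encodes the protein the mice lack, had 66.1 to 140 normalized reads in NPC1-deficient libraries, against 707 to 857 in wildtype libraries (log2 fold change -3.25, SE 0.20, limma adjusted p = 3.23e-05, exact two-sided permutation p = 0.0286, the smallest that 70 assignments allow). The groups therefore follow titles and descriptions. Another label field goes against them: whatever the group, it reads wildtype for libraries 1 and 2 but homozygous for libraries 3 and 4, and these pairs are here called library sets. Summed over 15 ganglion cell markers, NPC1-deficient libraries held 577036 to 610946 normalized reads and wildtype libraries 548930 to 584351. Libraries also differed in RNA of the sexes, with the female transcript Xist at 0 to 68.1 in NPC1-deficient and 18.2 to 595 in wildtype libraries, and a sum of 4 Y-linked genes at 2597 to 3788 in NPC1-deficient and 45.6 to 3093 in wildtype libraries, so part of any difference between genotypes cannot be told apart from sex. Wildtype 1 stood apart, with the highest Xist, the lowest Y-linked sum and the highest sum of rod markers. Wildtype 3 and 4 held RNA of both kinds, with Xist at 238 and 164 and Y-linked sums of 1241 and 1508. Whether libraries mix animals of both sexes was not tested.

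The results turn most on Slc1a3, Rlbp1 and Vim, and their promoter windows are shown because Slc1a3 and Rlbp1 had the lowest fold changes of the members tested and Vim the smallest p for a difference between library sets. Each window runs from 250 bases before to 50 bases after the gene start, 5′ to 3′ on the strand of the gene, in the RefSeq annotation of GRCm38.p6 (Slc1a3, chr15:8710758-8711057, minus strand; Rlbp1, chr7:79386978-79387277, minus strand; Vim, chr2:13574061-13574360, plus strand). The RefSeq starts of these genes differ from those of the GENCODE annotation, which gave the gene positions printed further on. The Vim window lies wholly inside the GENCODE gene, and the Slc1a3 window reaches only its first bases. The last bases of the window were found in GENCODE transcripts of Vim and of Rlbp1, but in none of Slc1a3. Capitals mark matches, on either strand, to 4 motifs. These were the TATA box (TATAAA), the core bound by the Notch effector RBPJ (TGGGAA), a SOX site (AACAAT) and a STAT site (TTCNNNGAA), and none of the matches overlap.
Slc1a3: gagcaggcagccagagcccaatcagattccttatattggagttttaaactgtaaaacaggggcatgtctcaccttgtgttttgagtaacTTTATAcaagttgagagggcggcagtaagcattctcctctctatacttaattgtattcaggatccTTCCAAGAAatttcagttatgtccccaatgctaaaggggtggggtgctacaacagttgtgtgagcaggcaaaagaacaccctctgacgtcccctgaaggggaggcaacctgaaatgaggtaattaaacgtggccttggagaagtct
Rlbp1: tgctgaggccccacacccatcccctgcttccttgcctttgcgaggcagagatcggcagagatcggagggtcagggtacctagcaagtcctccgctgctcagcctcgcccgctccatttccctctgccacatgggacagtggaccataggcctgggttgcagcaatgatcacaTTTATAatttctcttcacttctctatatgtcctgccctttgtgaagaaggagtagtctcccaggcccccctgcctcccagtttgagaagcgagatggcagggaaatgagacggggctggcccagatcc
Vim: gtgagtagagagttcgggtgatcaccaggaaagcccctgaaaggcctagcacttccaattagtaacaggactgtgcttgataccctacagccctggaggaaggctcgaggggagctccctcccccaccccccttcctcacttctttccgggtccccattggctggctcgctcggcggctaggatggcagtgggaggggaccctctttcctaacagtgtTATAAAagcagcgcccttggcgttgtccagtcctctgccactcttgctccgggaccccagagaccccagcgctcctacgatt
In the Slc1a3 window a TATA match begins 161 bases before the start on the opposite strand, and a STAT match begins at -96. The Rlbp1 window has a TATA match at -78 on the opposite strand, and that of Vim has one at -32 on the gene's own strand. Among 32851 promoter windows of this length the TATA letters occur in 13.6%, the STAT letters in 8.30%, the RBPJ letters in 25.6% and the SOX letters in 10.7%. These are letter matches and were not tested as binding sites. Entries were also found for Glul and Gfap.

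Levels of the 10 genes spread over more than 3 orders of magnitude. On the scale of normalized reads per kilobase of exon, averaged over 8 libraries, Dkk3 stood at 2441 and Glul at 2265, with library ranges that overlapped (2313 to 2649 and 2110 to 2410). Clu followed at 1016 and Vim at 393. Both Vim (294 to 485) and Rlbp1, at 210 (154 to 333), overlapped in their library ranges. Hes1 at 24.6 and Slc1a3 at 22.9 could not be ordered beyond their spread. Sox9 lay at 5.51, and Aqp4 at 1.29 and Gfap at 1.11 were again alike within their spread. On the same scale the ganglion cell markers Thy1, Pou4f2 and Rbpms stood at 22206, 3684 and 3433, so Dkk3 and Glul lay somewhat below Rbpms. Aqp4 and Gfap, defining genes of mature Müller cells and astrocytes, were near the detection limit.

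**Figure D1:**
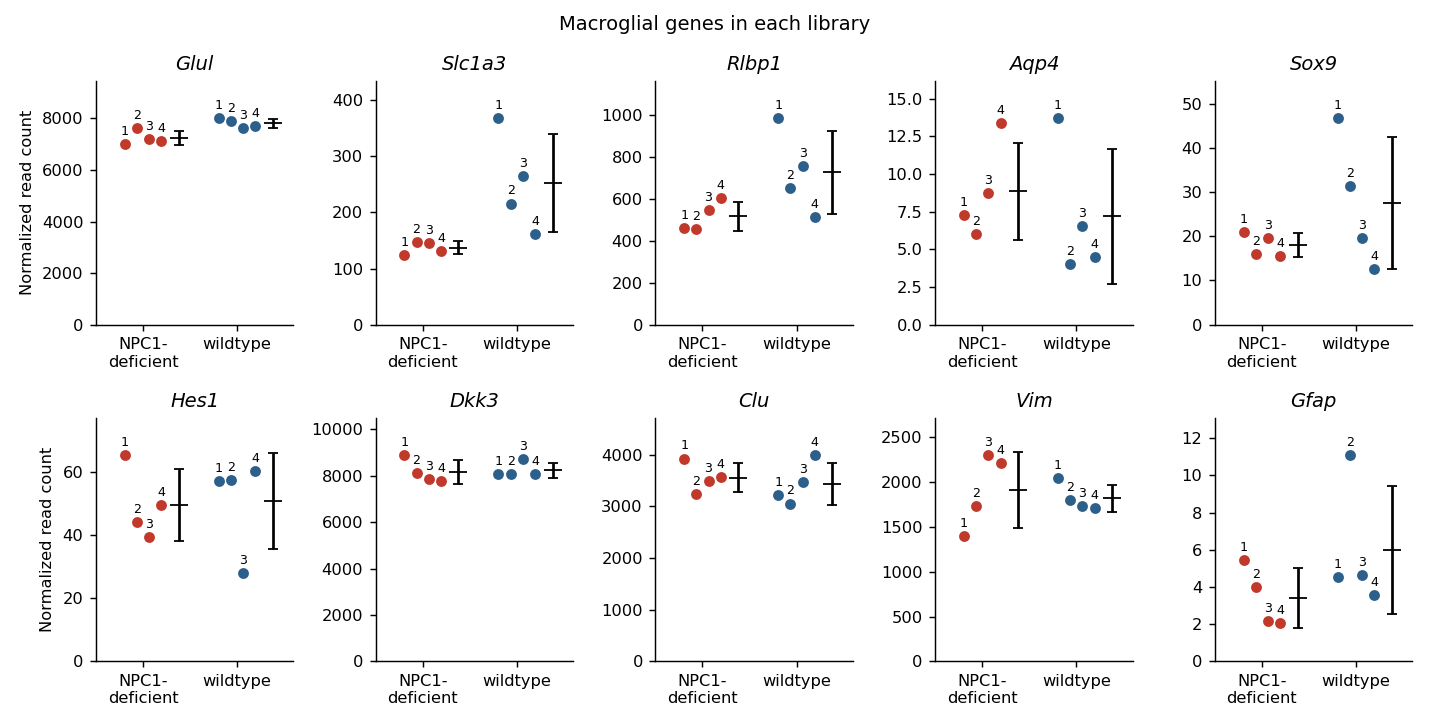
Normalized read count (vertical axes, from 0) of each gene in NPC1-deficient libraries (red) and wildtype libraries (blue), with points numbered by library and bars giving mean ± SD (n = 4). Slc1a3 reaches at most 148 in NPC1-deficient and at least 161 in wildtype libraries, and wildtype 1 is the highest of all libraries for 5 of the 10 genes.

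No gene of the 10 passed the test between genotypes. With genes tested at a mean normalized value of at least 10, 8 of the 10 entered the fit, each with a mean above that minimum in both groups, and Aqp4 and Gfap stayed out. Limma on log2(value + 1), adjusted over 15386 genes, called 0 of these 8, where it called 0.0650% of all genes lower and 0.0390% higher in NPC1-deficient libraries. At an unadjusted p under 0.05, 3 of 8 were lower (Slc1a3, Rlbp1 and Glul), against 4.37% of all genes. On the recovered reads edgeR called 0 and DESeq2 called 1, Slc1a3. The median log2 fold change over the 8 was -0.06, beside 0.00497 over all genes tested. In bulk RNA, fewer cells of a type and less RNA per cell cannot be told apart.

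The glutamate genes Slc1a3 and Glul were the only members whose NPC1-deficient libraries all lay below the wildtype ones, and neither passed the limma test. Slc1a3 (ENSMUSG00000005360, chromosome 15, 8634124 to 8710764, minus strand, mm10) encodes GLAST, the glutamate transporter of Müller cells and astrocytes. Its normalized read count was 125, 148, 146 and 131 in NPC1-deficient libraries 1 to 4, against 368, 216, 265 and 161 in wildtype libraries 1 to 4. All NPC1-deficient libraries lay below all wildtype libraries, the NPC1-deficient ones lay close together and the wildtype ones were spread 2.28-fold. The mean was 138 ± 11.2 in NPC1-deficient and 253 ± 87.8 in wildtype libraries (SD, n = 4 each). The first is 54.5% of the other, and on the log2 scale the fold change was -0.81 (SE 0.20, 95% interval -1.25 to -0.37, limma adjusted p = 0.143). DESeq2 called it (log2 fold change -0.88, adjusted p = 0.00488), where 1.29% of all genes were called lower. Limma called it without wildtype 4, the lowest wildtype library (adjusted p = 0.0402), in a fit that called 0.169% of all genes lower. Without wildtype 1, the highest, the log2 fold change was -0.61 (limma adjusted p = 0.167). Summed markers of rods, of amacrine cells and of endothelial cells, given further on, also did not overlap between the groups.

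Glul (ENSMUSG00000026473, chromosome 1, 153899944 to 153909723, plus strand, mm10) encodes glutamine synthetase, which makes glutamine from the glutamate that GLAST brings in. It had 7012, 7626, 7211 and 7119 normalized reads in NPC1-deficient libraries, against 8010, 7890, 7630 and 7717 in wildtype libraries. The groups did not overlap, but the gap was narrow, from 7626 in the highest NPC1-deficient to 7630 in the lowest wildtype library. NPC1-deficient libraries averaged 7242 ± 268 and wildtype libraries 7812 ± 171 (SD, n = 4 each), which is -0.11 as a log2 fold change (SE 0.05, limma adjusted p = 0.620). Slc1a3 and Glul were thus 2 of 8 genes lower without overlap, where 2.41% of all genes tested were. Of the exons of Glul, 3.49% of the length overlaps Teddm2 on the opposite strand and 2.80% the microRNA gene Mir8114, which counting without strand cannot separate. Among wildtype libraries Glul varied 1.05-fold, where Slc1a3 varied 2.28-fold and Rlbp1 1.91-fold. Which cells the Glul reads came from was not tested.

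The ratio of Glul to Slc1a3 did not overlap between the groups, which was not tested. There were 49.4 to 56.0 Glul reads per Slc1a3 read in NPC1-deficient libraries and 21.8 to 47.8 in wildtype libraries, the lowest ratio being in wildtype 1. Glul varied only 1.14-fold over all libraries, so this ratio largely restates the level of Slc1a3. The ratio of Glul to Rlbp1 overlapped, at 11.8 to 16.7 in NPC1-deficient and 8.14 to 15.0 in wildtype libraries. Among 9 further genes of glutamate and glutamine handling, 8 were tested and limma called none. Their median log2 fold change was 0.00, and the lowest p was that of Slc38a3, a glutamine transporter, at -0.30 (limma adjusted p = 0.983), followed by Glud1 and Got1, which encode enzymes that convert glutamate, each at 0.03 (limma adjusted p = 0.995). Slc1a2, which encodes the transporter GLT-1, stood at -0.03 (limma adjusted p = 0.995).

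Rlbp1 (ENSMUSG00000039194, chromosome 7, 79374870 to 79387048, minus strand, mm10) encodes CRALBP, which binds cis-retinoids in Müller cells and pigment epithelium. Its normalized read count was 461, 456, 546 and 602 in NPC1-deficient libraries, against 984, 650, 758 and 514 in wildtype libraries. Wildtype 4 lay among the NPC1-deficient values, and wildtype 1 was far above all others. The group means were 516 ± 70.5 in NPC1-deficient and 726 ± 198 in wildtype libraries (SD, n = 4 each), and the fold change was -0.46 on the log2 scale (adjusted p by limma = 0.477, SE 0.17). Without wildtype 1 it was -0.30 (limma adjusted p = 0.834), and without wildtype 4 it was -0.61 (limma adjusted p = 0.131). Of 9 genes of the visual cycle 8 were tested and limma called none. Rdh11, a retinol dehydrogenase, did not overlap, with 3888 to 4411 normalized reads in NPC1-deficient and 3299 to 3743 in wildtype libraries (log2 fold change 0.25, limma adjusted p = 0.113). Rdh10, a further retinol dehydrogenase, stood at -0.15 (limma adjusted p = 0.895) and Rpe65, the isomerase of pigment epithelium, at 0.54 (limma adjusted p = 0.924).

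The transcription factor genes were low and variable. Sox9, which specifies and maintains Müller glia, had 20.9, 16.0, 19.6 and 15.5 normalized reads in NPC1-deficient libraries, against 46.7, 31.3, 19.6 and 12.6 in wildtype libraries. Its wildtype libraries covered a 3.72-fold range, and 98.3% of tested genes had a smaller SD among wildtype libraries on the log2 scale. NPC1-deficient libraries averaged 18.0 ± 2.66 and wildtype libraries 27.5 ± 14.9 (SD, n = 4 each), or -0.44 on the log2 scale (adjusted p by limma = 0.957, SE 0.35), and this was -0.14 without wildtype 1 and -0.75 without wildtype 4. On the recovered reads it was -0.58 with edgeR and -0.60 with DESeq2, and none of these fits called Sox9. Hes1, a repressor induced by Notch signalling that holds back neuronal fate, had 65.3, 44.0, 39.2 and 49.6 normalized reads in NPC1-deficient libraries, against 57.0, 57.5, 28.0 and 60.1 in wildtype libraries. The groups overlapped, although NPC1-deficient 1 lay above every wildtype library and wildtype 3 below every NPC1-deficient one. Means of Hes1 were 49.5 ± 11.3 in NPC1-deficient and 50.6 ± 15.2 in wildtype libraries (SD, n = 4 each). The 95% interval of its log2 fold change ran from -0.56 to 0.57.

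The Notch pathway around Hes1 showed no called gene. Of 15 genes 13 were tested, 10 with a negative and 3 with a positive fold change, and the median was -0.07. Lfng, which glycosylates Notch, had the lowest p, with 17.2 to 26.2 normalized reads in NPC1-deficient and 29.8 to 52.4 in wildtype libraries (log2 fold change -0.82, limma adjusted p = 0.279). Hes5, a further Notch target of Müller glia, stood at 0.55 and Dll4, a Notch ligand, at -0.49 (limma adjusted p = 0.772 for each).

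The secreted products Dkk3 and Clu were high and even. Dkk3, a divergent Dickkopf glycoprotein, had 8899, 8117, 7881 and 7771 normalized reads in NPC1-deficient libraries, against 8073, 8076, 8712 and 8074 in wildtype libraries. Its means were 8167 ± 509 in NPC1-deficient and 8234 ± 319 in wildtype libraries (SD, n = 4 each), and the 95% interval of the log2 fold change ran from -0.13 to 0.10. Clu, the extracellular chaperone clusterin, had 3923, 3244, 3486 and 3559 normalized reads in NPC1-deficient libraries, against 3212, 3053, 3465 and 3993 in wildtype libraries. Every NPC1-deficient value of Clu fell inside the wildtype range, and the log2 fold change of 0.05 had an SE of 0.08 (limma adjusted p = 0.995). Of the other Dickkopf genes Dkk2 (0.49) and Dkkl1 (0.03 on the log2 scale) were tested and not called, while Dkk1 and Dkk4 were below the minimum.

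The intermediate filament genes Vim and Gfap are the ones whose rise marks reactive gliosis in injured retina. Vim (ENSMUSG00000026728, chromosome 2, 13573927 to 13582826, plus strand, mm10) had 1396, 1736, 2302 and 2209 normalized reads in NPC1-deficient libraries, against 2040, 1796, 1737 and 1705 in wildtype libraries. NPC1-deficient 1 was the lowest of all libraries and NPC1-deficient 3 and 4 were the highest. The means were 1911 ± 423 in NPC1-deficient and 1820 ± 152 in wildtype libraries (SD, n = 4 each), and the fold change was 0.05 on the log2 scale (adjusted p by limma = 0.995, SE 0.13). Gfap was at the edge of detection, with 6, 4, 2 and 2 whole reads in NPC1-deficient libraries, against 4, 11, 5 and 4 in wildtype libraries. Aqp4, the water channel of glial endfeet, had 8, 6, 8 and 13 whole reads in NPC1-deficient libraries, against 12, 4, 7 and 5 in wildtype libraries. Summed, Gfap had 14 reads in NPC1-deficient and 24 in wildtype libraries, and Aqp4 had 35 in NPC1-deficient and 28 in wildtype libraries. Both genes lay below the minimum of the main fit and were not tested there. Reads this few could not show a small difference of Gfap or Aqp4, and no limit of detection was computed.

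**Figure D2:**
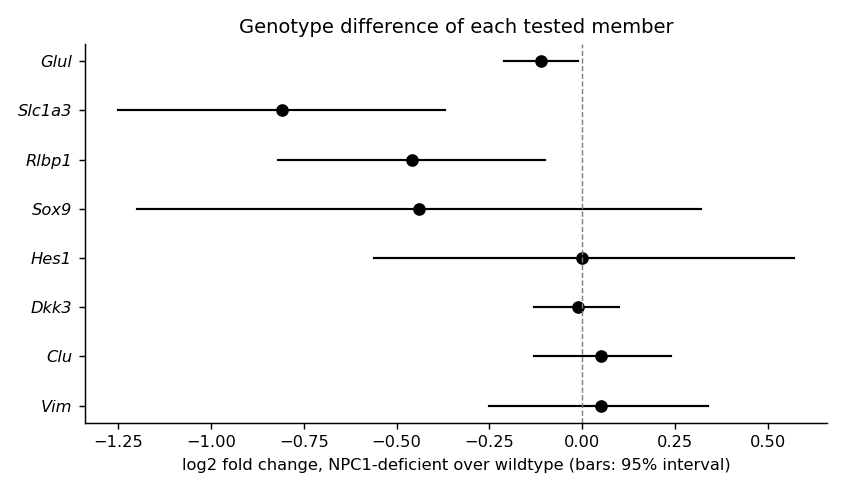
Log2 fold change of NPC1-deficient over wildtype libraries for the 8 genes tested (horizontal axis; points are the limma estimates and bars the 95% intervals). Slc1a3 lies lowest at -0.81, and the intervals of Glul, Slc1a3 and Rlbp1 lie below 0 before adjustment.

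Of 14 listed genes of reactive gliosis 6 reached the minimum, none was called, and their median log2 fold change was 0.07. The highest of the 6 were Serpina3n and Stat3 (limma adjusted p = 0.995 for each). Serpina3n had 534 to 736 normalized reads in NPC1-deficient and 549 to 637 in wildtype libraries. Stat3 had 517 to 821 in NPC1-deficient and 536 to 695 in wildtype libraries. Cp, which encodes the ferroxidase ceruloplasmin, had 51.0 to 63.0 normalized reads in NPC1-deficient and 60.5 to 168 in wildtype libraries (limma adjusted p = 0.758). Cd44, a hyaluronan receptor, had 204 to 244 in NPC1-deficient and 175 to 218 in wildtype libraries (limma adjusted p = 0.845). S100a6, a calcium-binding protein, stood at 0.16 (limma adjusted p = 0.993). Edn2, Fgf2 and Cntf, factors linked to retinal injury, had at most 1.86 normalized reads in any library.

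Of 18 further Müller glia genes 17 were tested, 14 with a negative fold change. Limma called 1 of the 17 lower, where it called 0.0650% of all genes lower. This was Apoe, the lipid carrier of macroglia that microglia also make, with 751, 1018, 848 and 639 normalized reads in NPC1-deficient libraries, against 1340, 1810, 2036 and 3143 in wildtype libraries (log2 fold change -1.31, SE 0.21, limma adjusted p = 0.0482). The call was lost when any of 6 of the 8 libraries was left out (adjusted p 0.0668 to 0.151; wildtype 1 and wildtype 4 were the exceptions), and the fold change kept its sign in all 21 alternatives. Among wildtype libraries Apoe was highest in wildtype 4 and lowest in wildtype 1, whereas Slc1a3, Rlbp1 and Sox9 were highest in wildtype 1 and lowest in wildtype 4. Sox2, shared by Müller glia and some amacrine cells, had 54.4, 83.1, 199 and 226 in NPC1-deficient libraries, against 513, 361, 521 and 237 in wildtype libraries (log2 fold change -1.69, SE 0.41, limma adjusted p = 0.126). Cd9, a tetraspanin, also did not overlap, with 152 to 219 in NPC1-deficient and 226 to 415 in wildtype libraries (limma adjusted p = 0.0985). Apoe, Sox2 and Cd9 were thus 3 of 17 genes lower without overlap, where 2.41% of all genes tested were. The median log2 fold change over the 17 genes was -0.27, beside 0.00497 over all genes tested.

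The further astrocyte genes listed were divided in direction. Of 16 further astrocyte genes 15 were listed and 13 tested, 7 with a negative and 6 with a positive fold change, a median of -0.03 and no call. Mlc1, a membrane protein of perivascular astrocyte endfeet, had 11.4 to 17.2 normalized reads in NPC1-deficient and 21.7 to 27.8 in wildtype libraries (log2 fold change -0.89, limma adjusted p = 0.173). Fabp7, a fatty acid binding protein of immature glia, stood at -0.57 (limma adjusted p = 0.881) and Nfia, a gliogenic factor, at -0.37 (limma adjusted p = 0.936). Pax2, which marks retinal astrocytes, had 36.0 to 62.6 in NPC1-deficient and 40.4 to 48.4 in wildtype libraries (limma adjusted p = 0.995). Gja1, the astrocytic gap junction gene, had at most 7.23 normalized reads in any library. The highest of the 13 tested, Atp1b2, Aldoc and Sparcl1, stood at 4315, 1636 and 782 normalized reads per kilobase, beside 1.11 for Gfap. Atp1b2 thus lay above the ganglion cell marker Rbpms at 3433. Which cells gave these reads was not tested, so the split in direction and the median may not describe astrocytes.

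The estimated genotype difference of several genes was unlike in the library sets, but no test of that difference passed. For Vim it was -0.30 on the log2 scale in libraries 1 and 2, and 0.39 in libraries 3 and 4. Fitted on libraries 3 and 4 alone, Vim was called (limma adjusted p = 0.00846), where 0.630% of all genes were called higher, and on libraries 1 and 2 alone it was not (limma adjusted p = 0.381). The interaction of genotype with library set was 0.69 for Vim (SE 0.14, unadjusted p = 0.000344) and did not pass over all genes (limma adjusted p = 0.0876). For Sox9 the log2 fold change was -1.03 in libraries 1 and 2 and 0.14 in libraries 3 and 4 (interaction limma adjusted p = 0.363). The values for Rlbp1 were -0.80 and -0.12 (interaction limma adjusted p = 0.310), and for Slc1a3 -1.04 and -0.58 (interaction limma adjusted p = 0.628). Glul was the steadiest, at -0.12 and -0.10. At an unadjusted p under 0.05 the interaction was seen in 3 of 8 genes, against 13.4% of all genes, and after adjustment in 0 of 8, against 0.0780%.

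**Figure D3:**
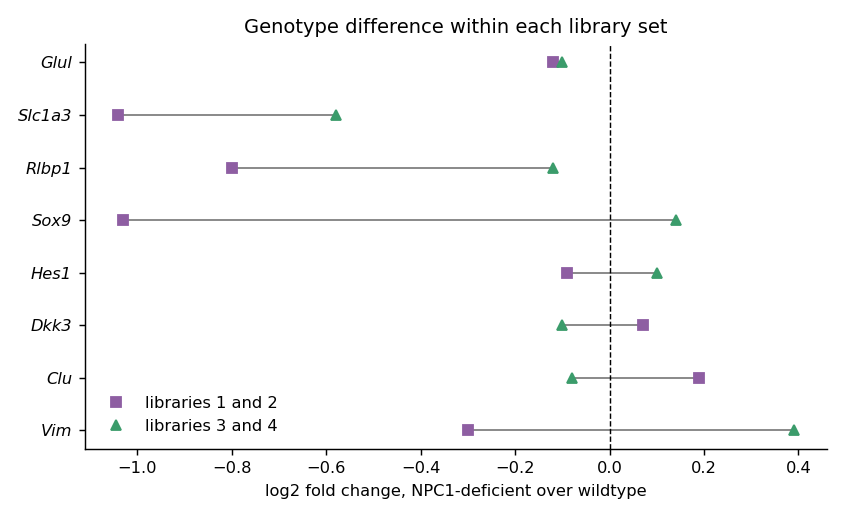
Log2 fold change of NPC1-deficient over wildtype libraries (horizontal axis) within libraries 1 and 2 (squares) and within libraries 3 and 4 (triangles), for the 8 genes tested. Vim moves between -0.30 and 0.39 and Sox9 between -1.03 and 0.14, while Glul stays at -0.12 and -0.10.

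Summed markers of rods and of amacrine cells lay lower in every NPC1-deficient than in any wildtype library. Rod markers, of which 12 of 12 had a negative fold change and none was at 0 in all libraries, summed to 3589 to 4379 normalized reads in NPC1-deficient and 5042 to 11037 in wildtype libraries. Among wildtype libraries their sum was 11037, 5256, 6903 and 5042, the same order, 1, 3, 2, 4, as for Slc1a3 and Rlbp1. The order was not shared in NPC1-deficient libraries 1 to 4, where the rod sum was 4379, 3589, 4149 and 4025. In NPC1-deficient 1 the rod sum was highest and Slc1a3 lowest, and Rlbp1 was highest in NPC1-deficient 4. Slc1a3 had 138, 148, 134 and 127 whole reads in NPC1-deficient libraries 1 to 4, a spread that counting error alone could give. Its order there therefore cannot show whether a course was shared. Orders over 4 libraries were not tested in either group. Amacrine markers (7 of 7 negative) summed to 1413 to 2096 in NPC1-deficient and 2446 to 4719 in wildtype libraries. Microglial markers (14 of 14 negative) summed to 1265 to 2692 in NPC1-deficient and 2295 to 11996 in wildtype libraries, with wildtype 4 the highest and wildtype 1, at 2295, within the NPC1-deficient range. Bipolar markers (9 of 9 negative) ranged from 1650 to 2006 in NPC1-deficient and from 1964 to 2502 in wildtype libraries, and endothelial markers (6 of 6 tested negative) from 298 to 334 in NPC1-deficient and from 355 to 584 in wildtype libraries. Among the endothelial markers the groups did not overlap for Kdr, a receptor of vascular endothelial growth factor, at 114 to 192 in NPC1-deficient and 208 to 413 in wildtype libraries (limma adjusted p = 0.233), and they overlapped for each of the others. The log2 fold changes of Pecam1, Tek and Esam were -0.04, -0.03 and -0.11, so the gap between the endothelial sums rests on Kdr. Median log2 fold changes of the tested markers were -0.99 for rods, -1.54 for amacrine cells, -1.52 for microglia, -0.79 for bipolar cells, -0.16 for endothelial cells, -0.64 for cones, -0.06 for pericytes and fibroblasts, 0.01 for the oligodendrocyte lineage, -0.07 for pigment epithelium and 0.05 for dividing cells. No marker of these lists was called by limma. The part of these cells in the values of Slc1a3, Rlbp1, Sox9 and Apoe was not tested.

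**Figure D4:**
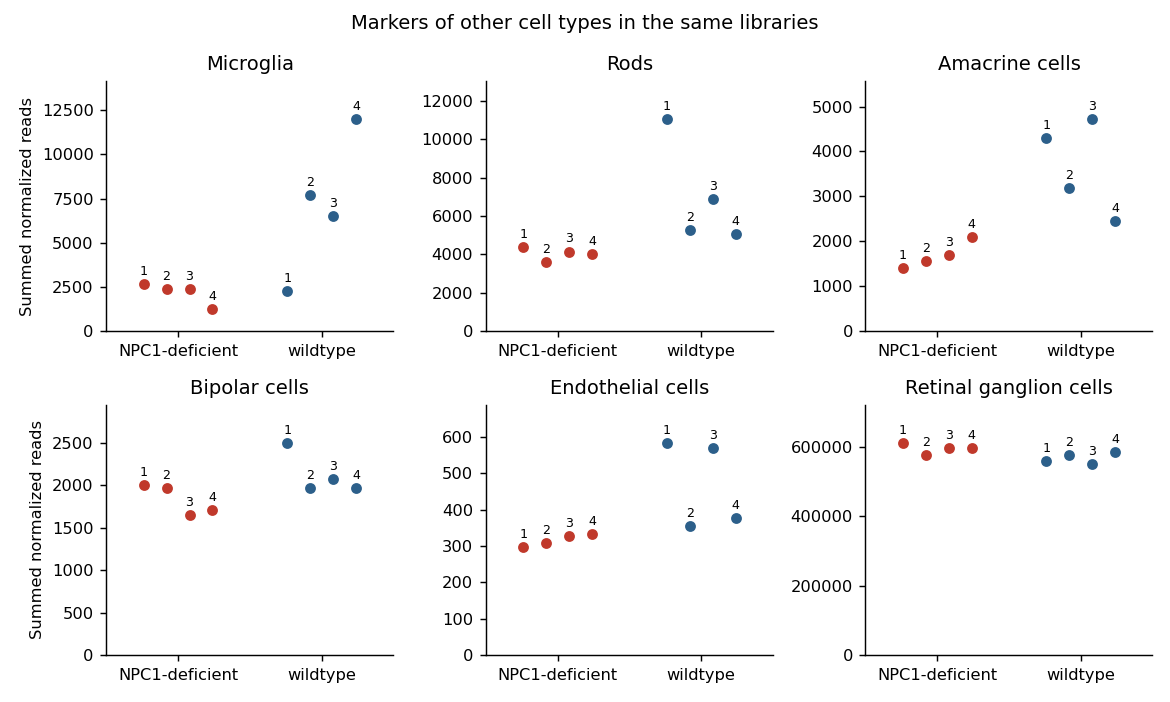
Summed normalized reads (vertical axes, from 0) of marker lists of 5 other cell types and of ganglion cells, in NPC1-deficient libraries (red, left) and wildtype libraries (blue, right), with points numbered by library. Rod markers reach 11037 in wildtype 1, and ganglion cell markers lie between 548930 and 610946 in all 8 libraries.

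The genes whose course over the 8 libraries lay closest to each member were found by the root mean square difference of log2 levels, each gene centred on its own mean. Closest to Slc1a3 were Cngb1, a subunit of the rod cyclic nucleotide-gated channel, and Fam89a, both at 0.152, beside a spread of Slc1a3 itself of 0.512. Cngb1 had 49.0, 47.0, 52.3 and 35.1 normalized reads in NPC1-deficient libraries, against 124, 71.7, 84.8 and 59.2 in wildtype libraries. Closest to Rlbp1 were Neurod1, a transcription factor of photoreceptors and amacrine cells, at 0.0949 and Zfp772 at 0.105, beside a spread of 0.354. For Sox9 these were Nrtn at 0.177 and Cck at 0.217 (spread 0.544), and for Vim the calponin gene Cnn3 at 0.0467 and Ifitm2 at 0.0658 (spread 0.218). Cnn3, like Vim, was lowest in NPC1-deficient 1, at 924, and highest in NPC1-deficient 3 and 4, at 1380 and 1428. Hes1 lay nearest to Pnlip (0.127) and Zfp820 (0.150). The steady genes lay nearest to other steady genes, Glul to Ppil4 and Gopc, Dkk3 to Atp6v1b2 and Vps52, and Clu to Mfsd10 and Rad52. Among the members, Slc1a3 and Rlbp1 differed by 0.235, and Slc1a3 and Hes1 by 0.685, the widest of all pairs. The even genes Glul and Dkk3 differed by 0.0989, more than their own spreads of 0.0665 and 0.0638. This measure is small for any 2 flat genes, so that value does not show a shared course.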

How the data were processed

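Immunopanned ganglion cells gave 4 NPC1-deficient and 4 wildtype libraries, made with an Illumina TruSeq RNA v2 kit per the labels' protocols; this kit keeps no strand. The submitters' processing notes name CASAVA 1.8.2, HTSeq 0.5.4p3, DESeq2 1.0.19 and mm10 without roles. No aligner is given in the sources used here. Values in the table the authors deposited are a signal, namely gene counts that were scaled by a constant for every library, as the values themselves show: all 199536 (100%) were whole reads within 1e-06 of a read. A listed 0 can stand for as many as 3 reads, by counting error only. Where the text gives p-values, they measure the spread between these libraries.

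Genes with a mean of at least 10 were tested (15386 of 24942) as log2(value + 1) with limma 3.58.1 in R 4.3.3, a mean-variance trend and Benjamini-Hochberg adjustment at 0.05. This scale understates fold changes of low genes. Among 21 alternatives were DESeq2 1.42.0 and a quasi-likelihood fit in edgeR 4.0.16, both on recovered reads. Same-numbered libraries did not deviate together (correlations of -0.07 to -0.02), so the numbers were not taken as pairs. Exon lengths and positions came from GENCODE M21, which held 98.1% of identifiers.

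All members are described. From each further list up to 3 genes with the smallest p were to be named, and for each member the 2 genes nearest in course. Apart from these, Slc1a2, Pax2, Gja1, Edn2, Fgf2, Cntf, Dkk1, Dkk4, Thy1, Pou4f2, Rbpms, Kdr, Pecam1, Tek and Esam were chosen after their values were seen. The same holds for Serpina3n, Stat3, Atp1b2, Aldoc and Sparcl1. The members and lists were chosen with earlier results of these data known.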

Additional observations from a re-analysis of the deposited data

Results flagged for a closer look

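Hes1 had 28.0 normalized reads in wildtype 3, far below the other wildtype libraries. Dkk3 had 8712 in wildtype 3, above the other wildtype libraries, which agree closely with one another. Gfap had 11.1 in wildtype 2, which is 11 whole reads. Of 58 groups of 4 libraries examined, 3 held such a library, and chance gives about 1 in 20.

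All NPC1-deficient libraries of Vim lay below the wildtype ones in libraries 1 and 2 and above them in libraries 3 and 4, and the interaction was 0.69 on the log2 scale (limma adjusted p = 0.0876). Dkk3 lay above wildtype in libraries 1 and 2 and below it in libraries 3 and 4, with an interaction of -0.17 (limma adjusted p = 0.422).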

How the results depend on the processing

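Of 21 alternatives, Slc1a3, Rlbp1 and Glul kept a negative fold change in all 21. Slc1a3 ranged from -1.04 to -0.58, with adjusted p between 0.00488 and 0.426 and an edgeR adjusted p of 0.108. The number of these genes called was 0 except for 1 with DESeq2, 1 in libraries 3 and 4 alone, and 0 to 1 when single libraries were left out. Their median log2 fold change was -0.209 in libraries 1 and 2 alone and lay between -0.187 and -0.060 without single libraries, the farthest being without wildtype 3. Signs turned for Hes1 with upper-quartile scaling (-0.0034), edgeR (-0.02), DESeq2 (-0.03), libraries 1 and 2 alone (-0.09) and single libraries left out (-0.25 to 0.11), and for Dkk3 (0.07 in libraries 1 and 2, -0.05 to 0.01 without single libraries). They also turned for Vim (-0.30 in libraries 1 and 2, -0.05 to 0.19 without single libraries), for Sox9 (0.14) and Clu (-0.08) in libraries 3 and 4. Over all genes 16 were called, against 10 with a minimum of 50, 34 with the replicate block, 99 with the library set as a term, 57 in libraries 1 and 2, 335 in libraries 3 and 4, 246 with DESeq2, 16 with edgeR and 2 to 144 without single libraries (144 without wildtype 1, 2 without NPC1-deficient 3). The cause was not tested. The replicate block called none of the 8 genes. Depth limits Gfap and Aqp4, which have at most 13 reads in a library. Apoe was called in 12 of 21 alternatives.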
